A study of Mus musculus with 12 samples.

Results

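Genes of the mitochondrial respiratory chain were followed in the injured auditory nerve of adult mice. The members are all genes whose symbol starts with Ndufa, Ndufb, Ndufc, Ndufs or Ndufv (complex I), Sdh (complex II), Uqcr (complex III), Cox4 to Cox8 (complex IV) or Atp5 (complex V, the ATP synthase). These were 94 of the 18193 genes that the array measured with a probe set of exactly 1 symbol, namely 44 genes of complex I, 8 of complex II, 8 of complex III, 17 of complex IV and 17 of complex V. The choice by name also took in 12 assembly factors (Ndufaf and Sdhaf genes), which help to build complexes I and II without being part of them, so that 82 members are named as subunits. Where a gene had several probe sets, the one with the highest mean over the 12 arrays stood for it, and no measured difference between groups entered the choice.

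The mice were CBA/CaJ, of both sexes and aged 8 to 12 weeks. In each mouse the right ear received ouabain, which blocks the sodium potassium pump, as a 3 mM solution of about 10 µl on the round window niche for 60 min. The left ear was left unoperated and served as control, so the controls came from animals that had the surgery and the drug on the other side, and no ear received surgery with vehicle alone. Animals with a small hearing threshold shift after ouabain were excluded by the study. The modiolus, the bony core of the cochlea with the spiral ganglion and the auditory nerve, was taken at 3 days or 7 days, which gave 4 groups of 3 Affymetrix whole-genome mouse arrays. Each array carried RNA of 2 pooled preparations, and which animals entered which pool is not named, so p-values measure the spread between pools.

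The respiratory chain sits in the inner mitochondrial membrane. Complexes I and II pass electrons from NADH and succinate to ubiquinone, complex III passes them on to cytochrome c, and complex IV hands them to oxygen. Complexes I, III and IV pump protons while doing so, and complex V makes ATP from the returning protons. Neurons cover most of their energy need in this way, and spiral ganglion neurons, which fire at high rates, spend much of it on the sodium potassium pump. Nearly all subunits are encoded in the nucleus, and the members here are all nuclear genes. Several subunits of complexes IV and V exist as pairs of isoforms from separate genes, 1 used in most tissues and 1 typical of heart and skeletal muscle, brown fat, testis or other tissues.

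Respiratory chain genes were lower in ouabain-treated nerves, by small amounts in most genes and in more genes at 7 days than at 3 days. At 3 days 38 of the 94 members fell (40.4%) and 3 rose at an adjusted p under 0.05 with no threshold on the fold, where over all genes 14.7% fell and 15% rose. At 7 days 65 members fell (69.1%) and 1 rose by the same rule, against 14.5% and 17.2% of all genes. The median log2 fold change of the members, ouabain over control, was -0.21 at 3 days and -0.39 at 7 days, beside 0.01 and 0.03 over all genes. In all, 78 members lay below 0 at 3 days and 83 at 7 days, beside 8747 and 8328 of all 18193 genes. By complex, from I to V, 56.8%, 25%, 37.5%, 17.6% and 29.4% fell at 3 days, and 77.3%, 50%, 75%, 47.1% and 76.5% at 7 days. The adjusted p comes throughout from limma over all 45037 probe sets, with Benjamini-Hochberg adjustment.

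Most of these differences were under 1.5-fold. When a fold above 1.5 was also required, which is what "called" means from here on, 5 members were called lower at 3 days (Ndufs1, Ndufaf5, Ndufaf6, Sdha and Cox8b) and 1 was called higher (Cox7a1), where 8.06% of all genes were called lower and 7.51% higher. The share of members called at 3 days was thus no larger than the background. At 7 days 24 of 94 were called lower and none higher by limma, against 8.2% and 7.57% of all genes, and at an unadjusted p under 0.05 with no fold threshold 75 were lower and 1 higher. By limma, 4 members were called lower at both days, 20 at 7 days and not at 3 days, and Sdha at 3 days and not at 7 days. The matching counts over all genes were not made. The 1 member that rose at 7 days without a fold threshold was Cox7b2, a subunit gene typical of testis, whose probe set was near the lower end of the scale with a mean log2 level of 4.53.

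**Figure D1:**
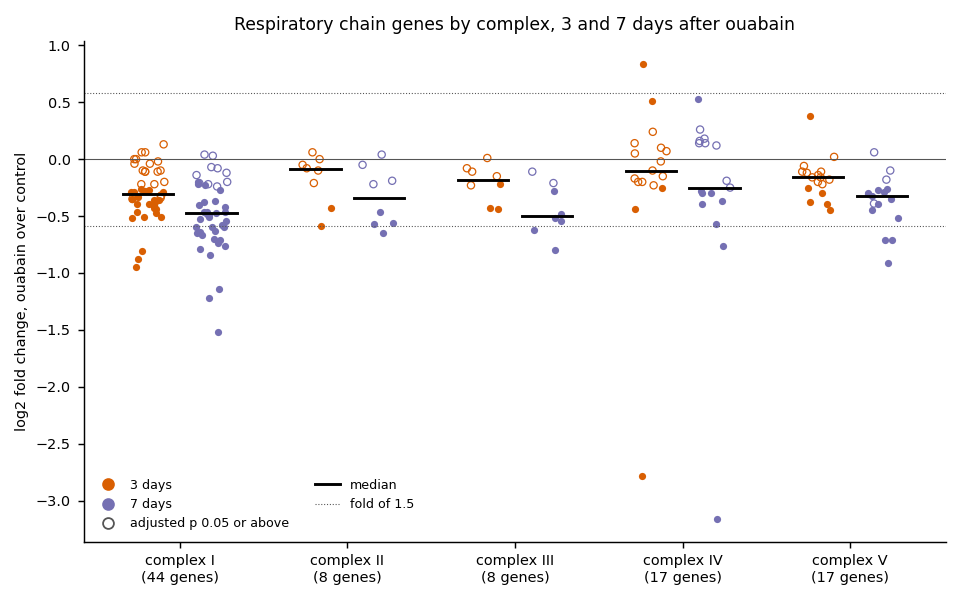
Log2 fold change of ouabain over control (vertical axis) for each of the 94 respiratory chain genes, by complex, at 3 days and at 7 days. Filled points passed an adjusted p under 0.05, open points did not, bars are medians and dotted lines mark a fold of 1.5. The medians lie below 0 in every complex at both days, and Cox8b of complex IV lies far below the others at -2.78 and -3.16.

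The array values showed the same shift without a model. In 61 members all 3 ouabain arrays lay below all 3 control arrays at 3 days, and in 4 they lay above, where 21.2% and 22.4% of all genes did so. At 7 days these numbers were 78 and 4 of 94, against 20.6% and 25.6% of all genes. Of the 94, 60 lay below all controls at both days, which was not counted over all genes. The median over the members, as a difference from the control mean of the day, was -0.13, -0.22 and -0.23 on the ouabain arrays at 3 days and -0.41, -0.35 and -0.41 at 7 days, while the 6 control arrays lay between -0.02 and 0.03. The 6 ouabain arrays were thus all below the 6 control arrays, and the 7-day arrays below the 3-day arrays.

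**Figure D2:**
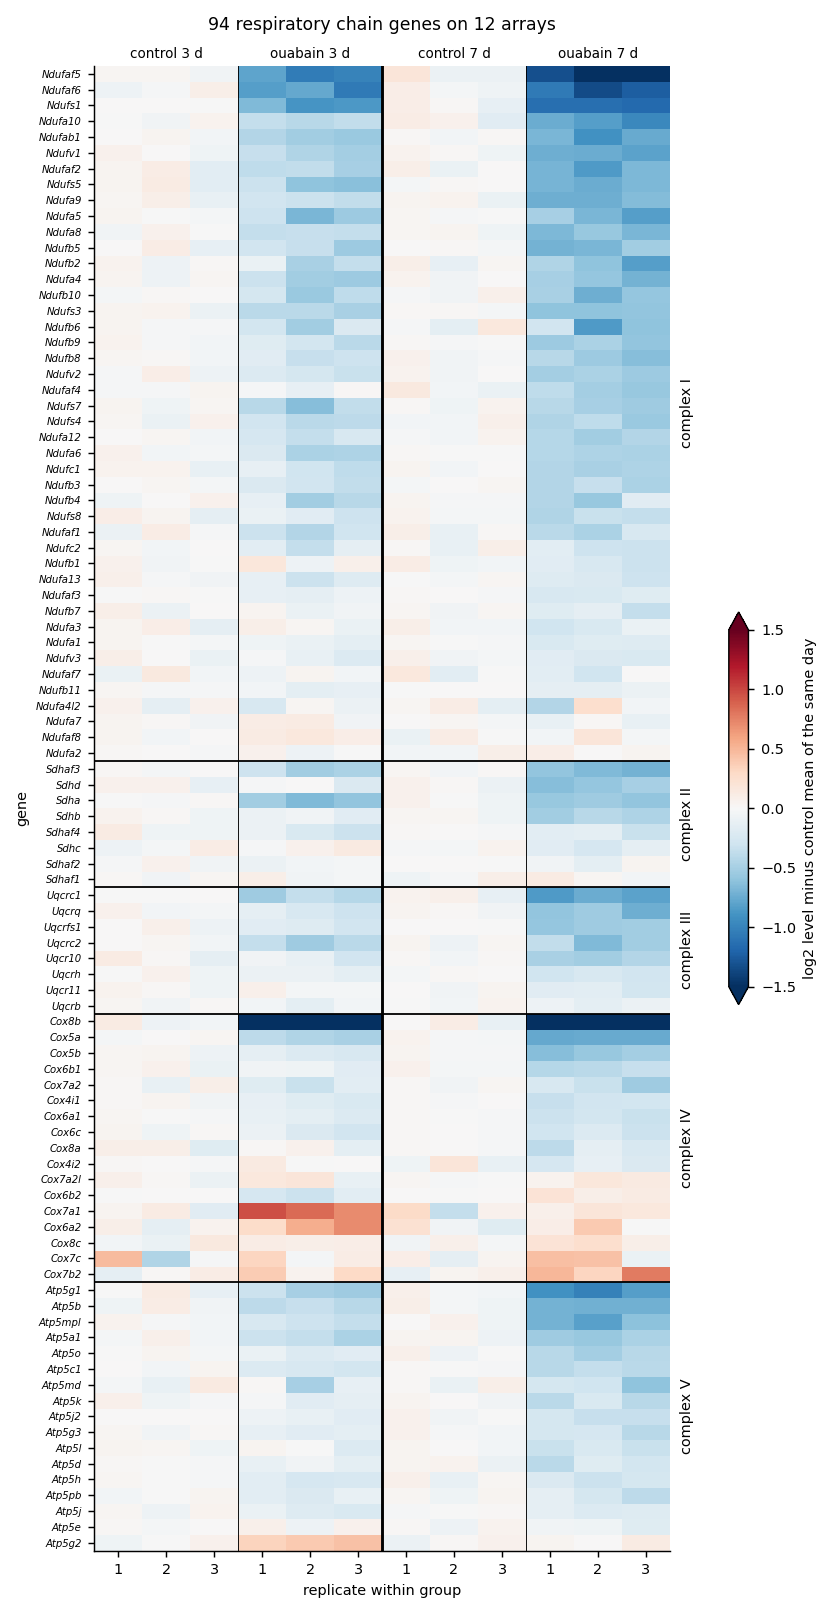
Each row is 1 of the 94 genes, ordered by complex and by the 7-day fold change, and each column is 1 of the 12 arrays. Colour gives the log2 level minus the control mean of the same day, blue for lower and red for higher, with the scale ending at 1.5 on either side. Blue fills most rows of the ouabain columns, and Cox7a1, Cox6a2 and Atp5g2 stand out in red at 3 days.

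A brightness check was made because respiratory chain genes give strong signals. Of the 94 members, 70 had a mean log2 level above 11 and 4 below 6 (Ndufb4, Cox7b2, Cox4i2 and Cox7c), with a range of 4.31 to 13.88, while the highest value on each array lay between 14.24 and 14.45. Among all 1651 genes with a mean above 11, 21.4% fell at 3 days and 21.3% at 7 days without a fold threshold, with medians of 0.00 and 0.06. Among the 70 bright members the shares were 42.9% and 78.6%, with medians of -0.22 and -0.45. The bright members were thus lower more often than bright genes at large. The standard error of a member's log2 fold change had a median of 0.08, with a range of 0.07 to 0.31.

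Complex I, the NADH dehydrogenase and entry point for most electrons, is the largest of the complexes and had the most members that fell. By limma 25 of its 44 genes fell at 3 days and 34 at 7 days without a fold threshold. On the probe sets used none rose, at an unadjusted p under 0.05 either. A second probe set of Ndufb8 was called higher at 7 days, at 0.75, where the one used read -0.53. Of the 5 probe sets of Ndufa7, 1 rose at each day without a fold threshold, the highest values being 0.28 and 0.26. Its median log2 fold change was -0.30 and -0.48, and 3 and 16 genes were called lower. Leaving out the 8 Ndufaf assembly factors kept the medians at -0.30 and -0.48 over 36 subunit genes.

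Ndufs1 encodes the large iron-sulfur subunit that carries electrons towards ubiquinone. On the probe sets used it had the largest change among the subunit genes of complex I at both days. Its log2 levels were 11.89, 11.9 and 11.88 in controls and 11.23, 11 and 11.03 after ouabain at 3 days. At 7 days they were 11.99, 11.91 and 11.76 in controls and 10.76, 10.76 and 10.72 after ouabain. The groups did not overlap at either day, and the control arrays of both days lay within a narrow band. The log2 fold change was -0.81 (SE 0.09, limma adjusted p 2.97e-05) at 3 days and -1.14 (SE 0.09, adjusted p 2.59e-06) at 7 days, a 1.75-fold and a 2.2-fold lower level. A second probe set of Ndufa10 fell further, by 1.21 and by 1.67, and was called lower at both days. The one used for Ndufa10 read -0.38 and -0.84.

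Ndufv1, the subunit that binds NADH and takes up its electrons, fell by 0.44 at 3 days (SE 0.08, limma adjusted p 0.00115) and by 0.76 at 7 days (SE 0.08, adjusted p 2.09e-05) on the log2 scale. Its levels were 12.68, 12.61 and 12.54 in 3-day controls against 12.26, 12.16 and 12.1 after ouabain, and 12.69, 12.66 and 12.57 in 7-day controls against 11.91, 11.89 and 11.84. Its 3 probe sets behaved alike, with a range of -0.53 to -0.44 at 3 days and of -0.8 to -0.76 at 7 days. By symbol group, the 6 Ndufs genes, the core subunits of the electron path among them, had medians of -0.45 and -0.54, and 5 of 6 fell at 3 days and all 6 at 7 days. The 3 Ndufv genes had medians of -0.26 and -0.51, the 14 Ndufa genes -0.31 and -0.46, the 11 Ndufb genes -0.29 and -0.53, and the 2 Ndufc genes -0.25 and -0.36. These groups were not tested against each other.

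On the probe sets used, the assembly factors Ndufaf5 and Ndufaf6 had the largest falls of the complex. Both are needed early in the building of complex I. Ndufaf5 read 9.36, 9.36 and 9.28 in 3-day controls and 8.54, 8.29 and 8.33 after ouabain, and 9.78, 9.51 and 9.51 in 7-day controls and 8.28, 7.91 and 8.05 after ouabain. The log2 fold changes were -0.95 (SE 0.11) and -1.52 (SE 0.11), with limma adjusted p of 7.59e-05 and 2.61e-06. Ndufaf6 fell by 0.88 and by 1.22 (SE 0.1 at both days) on the log2 scale, with no overlap between groups. The other members of complex I called lower at 7 days were Ndufa4 and, listed here after their values were seen, Ndufa5, Ndufa8, Ndufa9, Ndufa10, Ndufab1, Ndufaf2, Ndufb2, Ndufb5, Ndufb10, Ndufs3 and Ndufs5.

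Ndufa4l2, a relative of Ndufa4 that is induced by hypoxia in other tissues, was dim on the array, at 6.21, 6.01 and 6.2 in 3-day controls and 5.9, 6.17 and 6.05 after ouabain. Its log2 fold changes of -0.10 and -0.08 (SE 0.15) did not pass the test, and the groups overlapped. Ndufa4 itself, placed here by its symbol although its protein is now counted with complex IV, fell by 0.46 at 3 days (SE 0.09, limma adjusted p 0.00198) and by 0.60 at 7 days (SE 0.09, adjusted p 0.000352). The fall at 7 days lay just past the fold of 1.5.

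Complex II, succinate dehydrogenase, is also an enzyme of the citric acid cycle. Without a fold threshold, 2 of its 8 genes fell at 3 days (Sdha and Sdhaf3) and 4 at 7 days (these and the iron-sulfur subunit gene Sdhb and the membrane anchor gene Sdhd), and none rose, at an unadjusted p under 0.05 either. The median log2 fold change was -0.09 and -0.34. Sdha, the flavoprotein that oxidises succinate, read 12.12, 12.11 and 12.14 in 3-day controls against 11.6, 11.46 and 11.53, and 12.2, 12.12 and 12.07 in 7-day controls against 11.56, 11.6 and 11.54. It fell by 0.59 and by 0.56 (SE 0.07, limma adjusted p 8.54e-05 and 0.000131), values that lie on either side of the fold of 1.5, and the difference between the days was 0.03 (adjusted p 0.941). Sdha has 4 probe sets that disagreed, with log2 fold changes from -0.59 to 0.12 at 3 days, and 2 of the 4 fell. With the mean over the probe sets the value at 3 days was -0.22 (limma adjusted p 0.0976), which ends the call.

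Sdhb and Sdhd did not pass the test at 3 days and fell at 7 days. Sdhb stood at 12.23, 12.2 and 12.11 in 3-day controls and at 12.09, 12.13 and 12.01 after ouabain, so the groups overlapped, and at 12.35, 12.35 and 12.26 against 11.8, 11.9 and 11.86 at 7 days, where they did not. The log2 fold changes were -0.10 (SE 0.07, limma adjusted p 0.423) and -0.46 (SE 0.07, adjusted p 0.000627). Sdhd read -0.08 (SE 0.09, adjusted p 0.638) and -0.57 (SE 0.09, adjusted p 0.000626). The difference between the days was -0.49 for Sdhd and did not pass limma after adjustment over all probe sets (adjusted p 0.113). Sdhaf3, an assembly factor of complex II, fell by 0.43 and by 0.65 (SE 0.08) and was the 1 gene of the complex called lower at 7 days. With 1 array left out, 1 to 3 were called there. Without control replicate 3 of 7 days Sdha and Sdhd were called too, and without ouabain replicate 3 of 7 days Sdhd was.

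Complex III, the cytochrome bc1 complex, had 3 of 8 genes that fell at 3 days (Uqcrc1, Uqcrc2 and Uqcrfs1) and 6 of 8 at 7 days. None was higher, at an unadjusted p under 0.05 either, and the medians were -0.19 and -0.50. Uqcrc1, a core subunit on the matrix side, stood at 12.26, 12.27 and 12.28 in 3-day controls and 11.74, 11.91 and 11.84 after ouabain. At 7 days it stood at 12.43, 12.45 and 12.25 against 11.53, 11.63 and 11.57. The groups did not overlap, and the log2 fold changes were -0.44 (SE 0.08, limma adjusted p 0.00153) and -0.80 (SE 0.08, adjusted p 2.03e-05).

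Uqcrfs1, the Rieske iron-sulfur protein that takes electrons from ubiquinol, fell by 0.22 (SE 0.07, limma adjusted p 0.0477) and by 0.54 (SE 0.07, adjusted p 0.000153). Uqcrq, a small subunit, read -0.23 at 3 days (adjusted p 0.0726) and was called at 7 days at -0.62 (SE 0.08, adjusted p 0.000175). The 4 probe sets of Uqcrq ranged from -0.62 to -0.11 at 7 days, and with their mean the value was -0.30, below the fold threshold. In all 8 genes of complex III the 3 ouabain arrays lay below the 3 control arrays at 7 days, where 20.6% of all genes did so. Among the 8 were Uqcrb and Uqcr11, which did not pass the test.

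Complex IV, cytochrome c oxidase, held members that moved in both directions at 3 days, with a share of falling genes near that of all genes. Without a fold threshold 3 of its 17 genes fell (Cox5a, Cox6b2 and Cox8b, 17.6%) and 2 rose (Cox7a1 and Cox6a2) at 3 days. Over all genes 14.7% fell and 15% rose. At 7 days 8 fell (47.1%) and 1 rose, against 14.5% and 17.2% of all genes. The median log2 fold change was -0.10 and -0.25, and 7 of the 17 values were above 0 at each day. Of the subunits used in most tissues, Cox4i1, Cox5a, Cox5b, Cox6a1, Cox6b1, Cox6c and Cox7a2 fell at 7 days, and Cox8a and Cox7c, the latter on a dim probe set, did not pass the test. Cox5a was the 1 called. It read 13.31, 13.34 and 13.37 in 3-day controls against 12.95, 12.89 and 12.85, and 13.41, 13.33 and 13.32 in 7-day controls against 12.58, 12.6 and 12.6. Its log2 fold change was -0.44 (SE 0.07, limma adjusted p 0.000496) and -0.76 (SE 0.07, adjusted p 8.92e-06), and the mean over its 3 probe sets was -0.54 at 7 days, under the fold threshold.

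Cox8b changed more than any other member. It encodes the form of subunit 8 known from heart, skeletal muscle and brown fat, and its log2 levels were 10.65, 10.45 and 10.49 in 3-day controls and 8.62, 7.8 and 6.83 after ouabain. At 7 days they were 10.74, 10.85 and 10.63 in controls and 7.59, 7.42 and 7.73 after ouabain. The ouabain arrays spread widely at 3 days, replicate 1 being the highest, and closely at 7 days, and none came near the controls. The log2 fold change was -2.78 (SE 0.31, limma adjusted p 4.65e-05) and -3.16 (SE 0.31, adjusted p 1.82e-05), a 6.86-fold and an 8.93-fold lower level. Leaving out 1 array at a time kept these values within -3.21 and -2.32 at 3 days and within -3.23 and -3.08 at 7 days.

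Since Cox8b is known as a muscle and brown fat gene, markers of those tissues were set beside it. Of 11 skeletal muscle genes, 10 had mean log2 levels between 3.28 and 6.22 over the 12 arrays, among them Ckm, the muscle creatine kinase, at 5.4, and Myh4, a fast myosin, at 4.08. The other, Pvalb, which neurons also express, fell by 2.48 and by 3.08. The medians over the muscle list were 0.03 and -0.01 and those over 5 brown fat genes 0.18 and -0.03, and none of the 5 passed the test. Without a fold threshold 2 muscle genes rose at 3 days, Tnni2 by 0.40 (limma adjusted p 0.00824) and Acta1 by 0.31 (adjusted p 0.0227), at mean levels of 5.12 and 5.21, and Acta1 rose by 0.27 at 7 days (adjusted p 0.0424). Apart from Pvalb, the muscle markers were near the lower end of the scale. The neuron markers fell on the same arrays, as given further on, and their part in the fall of Cox8b was not tested.

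Cox8a, the form of subunit 8 used in most tissues, did not pass the test. Its levels were 12.78, 12.78 and 12.51 in 3-day controls and 12.71, 12.75 and 12.54 after ouabain, and 12.91, 12.9 and 12.88 in 7-day controls against 12.5, 12.76 and 12.66. The log2 fold changes of -0.02 and -0.25 (SE 0.1) had limma adjusted p of 0.924 and 0.0888. Taken as a difference within each array, Cox8a minus Cox8b was higher after ouabain by 2.76 (95% interval 1.43 to 4.08) at 3 days and by 2.90 (2.49 to 3.32) at 7 days. The exact permutation test over arrays within both days, two-sided, gave p = 0.005, the smallest that its 400 arrangements can give, and 0.0075 after adjustment over the 9 isoform pairs compared. This test of pairs was added after the data were seen.

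The 2 promoter windows of this pair are shown because the genes responded so differently. They are RefSeq sequences of GRCm38.p6, from 250 bases before to 50 bases after the start of the gene and given in the direction of transcription, for Cox8a at chr19:7217567-7217866 and for Cox8b at chr7:140900397-140900696, both on the minus strand. Capitals mark matches to 1 of 4 short motifs on either strand, GCGCATGC (the core of the NRF1 site), CGGAAG (ETS factors, which include GABPA), AAGGTCA (estrogen-related receptors) and TGACGTCA (cyclic AMP response element), or to TATAAA on the strand shown.
Cox8a: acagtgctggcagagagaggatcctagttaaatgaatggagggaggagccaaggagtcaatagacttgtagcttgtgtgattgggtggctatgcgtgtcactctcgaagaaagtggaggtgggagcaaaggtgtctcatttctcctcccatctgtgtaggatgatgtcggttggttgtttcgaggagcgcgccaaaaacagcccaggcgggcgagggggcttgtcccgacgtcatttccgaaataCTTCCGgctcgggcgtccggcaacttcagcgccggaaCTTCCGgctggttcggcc
Cox8b: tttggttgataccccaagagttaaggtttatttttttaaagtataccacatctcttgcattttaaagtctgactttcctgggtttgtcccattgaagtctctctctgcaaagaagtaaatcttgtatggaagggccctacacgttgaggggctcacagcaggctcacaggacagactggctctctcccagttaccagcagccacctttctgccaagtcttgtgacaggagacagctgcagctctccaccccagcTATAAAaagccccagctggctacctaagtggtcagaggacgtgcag
The Cox8a window held 2 ETS matches and 19 CG dinucleotides. The Cox8b window held no match to the 4 motifs, a TATAAA and 2 CG dinucleotides. No other member with a window had fewer CG dinucleotides, and the median over the 78 of 94 members with a window in the table was 20, beside 7 over all windows. For the 5 members with several windows the highest count was taken, while the 7 is over every single window. TATAAA stood in the windows of 3 of the 78 members (Ndufa3, Ndufs7 and Cox8b) and of 9.77% of all 27025 genes in the RefSeq table. A match to such a motif is a description of the letters and shows no binding.

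Cox7a1, the heart and muscle form of subunit 7a, was the 1 member called higher. It stood at 8.56, 8.64 and 8.35 in 3-day controls and at 9.48, 9.37 and 9.22 after ouabain, with no overlap. At 7 days the controls were at 9.16, 8.52 and 8.94 and the ouabain arrays at 8.95, 9.06 and 9.03, inside the range of the controls. The log2 fold change was 0.84 (SE 0.14, limma adjusted p 0.00096) at 3 days and 0.14 (SE 0.14, adjusted p 0.54) at 7 days. The difference between the days, -0.70 (SE 0.2), did not pass the test over all probe sets (adjusted p 0.152). Without control replicate 2 of 7 days, the lowest of its group, it was -0.87 with a limma adjusted p of 0.043.

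Cox6a2, the heart and muscle form of subunit 6a, was dim on the array and read 5.88, 5.65 and 5.84 in 3-day controls against 6.07, 6.33 and 6.5 after ouabain. It rose by 0.51 (SE 0.14, limma adjusted p 0.0224) at 3 days and read 0.16 (adjusted p 0.49) at 7 days. Its 2 probe sets had log2 fold changes of 0.10 and 0.51 at 3 days, and 1 of the 2 passed the test. The counterparts used in most tissues did not pass the test at 3 days and fell at 7 days. Cox7a2 read -0.23 (adjusted p 0.129) and fell by 0.37 at 7 days (SE 0.1, adjusted p 0.0141), and Cox6a1 read -0.15 (adjusted p 0.147) and fell by 0.30 at 7 days (SE 0.07, adjusted p 0.0054). Within arrays, Cox7a2 minus Cox7a1 changed by -1.07 (95% interval -1.57 to -0.56) and -0.51 (-1.06 to 0.03), and Cox6a1 minus Cox6a2 by -0.66 (-1.12 to -0.20) and -0.46 (-0.88 to -0.05). For both pairs the exact permutation p was 0.005, adjusted 0.0075, the second pair resting on the dim probe set of Cox6a2, which was not shown to be above background.

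The heart and muscle forms of the 3 subunits therefore did not move as a group, since Cox8b fell while Cox7a1 and Cox6a2 rose at 3 days. Cox6b2, a form typical of testis, read 8.42, 8.43 and 8.43 in 3-day controls and 8.17, 8.11 and 8.27 after ouabain, and 8.47, 8.46 and 8.47 in 7-day controls and 8.67, 8.56 and 8.59 after ouabain. It fell by 0.25 at 3 days (SE 0.07, limma adjusted p 0.0258) and read 0.14 at 7 days (adjusted p 0.186), and all ouabain arrays were below the controls at 3 days and above them at 7 days. The difference between the days was 0.39 (SE 0.1) and did not pass the test (limma adjusted p 0.113). Within arrays, Cox6b1 minus Cox6b2 changed by 0.15 (95% interval -0.12 to 0.42) at 3 days, where the groups overlapped, and by -0.53 (-0.69 to -0.37) at 7 days, where all ouabain arrays were below the controls. The signs were opposite, and the exact permutation p of 0.145 is for the mean over both days. Cox4i1 fell by 0.30 at 7 days (SE 0.07, limma adjusted p 0.00638), while Cox4i2, a form known from lung, read 0.05 and -0.19 without passing, at levels near 5.4. Cox4i1 minus Cox4i2 changed by -0.22 (95% interval -0.31 to -0.13) and by -0.11 (-0.40 to 0.18), with overlapping groups at 7 days. Ndufa4 minus Ndufa4l2 changed by -0.36 (-0.76 to 0.03) and by -0.51 (-1.21 to 0.18), again with overlap at 7 days. The exact permutation p over both days was 0.02 for either pair (adjusted 0.0225), but Cox4i2 and Ndufa4l2 had dim probe sets, with mean levels of 5.40 and 6.08, which were not shown to be above background. Cox7a2l, a relative of subunit 7a that joins complexes III and IV, read 0.07 and 0.12 (limma adjusted p 0.668 and 0.374), and the testis form Cox8c read 0.10 and 0.18.

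**Figure D3:**
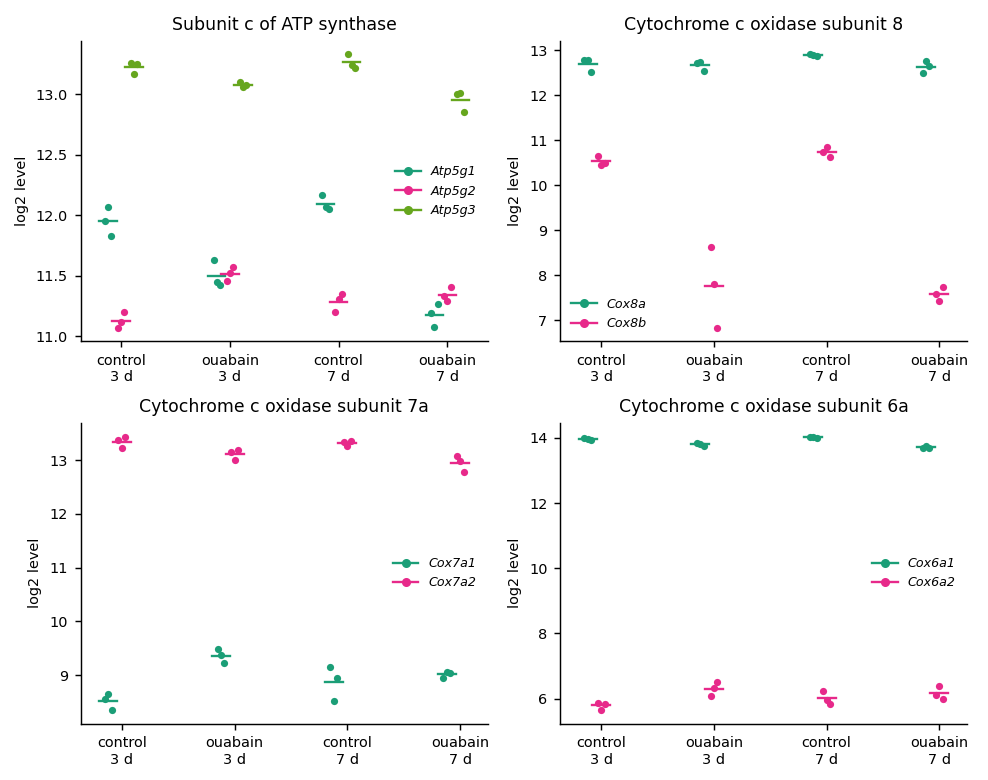
Log2 levels (vertical axis) of isoform genes in the 4 groups, 1 point per array and a bar at each mean, for subunit c of ATP synthase and for subunits 8, 7a and 6a of cytochrome c oxidase. Distances between genes have no meaning, since each gene has its own probe set, and changes along a row do. Cox8b has log2 fold changes of -2.78 and -3.16, Atp5g1 falls below its controls at both days, and Cox7a1 and Atp5g2 lie above theirs at 3 days.

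Complex V, the ATP synthase, held genes that fell at both days and 1 that rose. At 3 days 5 of its 17 genes fell (Atp5a1, Atp5b, Atp5c1, Atp5g1 and Atp5mpl) and 1 rose (Atp5g2), and at 7 days 13 fell and none rose by limma, at an unadjusted p under 0.05 either. The medians were -0.16 and -0.32, and 3 genes were called lower at 7 days. Atp5b, the catalytic beta subunit, stood at 13.17, 13.34 and 13.18 in 3-day controls against 12.84, 12.89 and 12.81, and at 13.43, 13.31 and 13.28 in 7-day controls against 12.63, 12.62 and 12.62. The groups were apart at both days, and the 3 ouabain arrays at 7 days were nearly equal. It fell by 0.39 (SE 0.08, limma adjusted p 0.00276) and by 0.71 (SE 0.08, adjusted p 3.34e-05). Atp5a1, the alpha subunit, fell by 0.38 and by 0.52 (SE 0.08, adjusted p 0.00294 and 0.000342) on the probe set used, and its 3 probe sets ranged from -0.57 to -0.06 at 7 days. Atp5mpl, a small membrane subunit, fell by 0.30 and by 0.71 (SE 0.08).

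The 3 genes Atp5g1, Atp5g2 and Atp5g3 encode the same mature protein, subunit c, which forms the rotor ring of the ATP synthase and differs between the genes in its import sequence only. They responded apart. Atp5g1 read 11.95, 12.07 and 11.83 in 3-day controls against 11.63, 11.45 and 11.42, and 12.17, 12.07 and 12.05 in 7-day controls against 11.19, 11.08 and 11.27. It fell by 0.45 (SE 0.09, limma adjusted p 0.00348) and by 0.91 (SE 0.09, adjusted p 2.12e-05), and both of its probe sets fell at both days.

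Atp5g2 read 11.07, 11.12 and 11.2 in 3-day controls against 11.46, 11.52 and 11.57 after ouabain. At 7 days it read 11.2, 11.31 and 11.35 against 11.33, 11.29 and 11.41, where the groups overlapped. It rose by 0.38 at 3 days (SE 0.08, limma adjusted p 0.00279) and read 0.06 at 7 days (adjusted p 0.651), and its 3 probe sets spanned 0.08 to 0.38 at 3 days and -0.14 to 0.29 at 7 days. Only 1 of the 3 probe sets passed the test at 3 days, the one used, which had the highest value. Atp5g3 read 13.26, 13.17 and 13.25 against 13.1, 13.06 and 13.08 at 3 days, and 13.33, 13.24 and 13.22 against 13.0, 13.01 and 12.85 at 7 days. It read -0.14 (adjusted p 0.219) and fell by 0.31 at 7 days (SE 0.08, adjusted p 0.00998). Within arrays, Atp5g1 minus Atp5g2 changed by -0.83 (95% interval -1.21 to -0.45) and -0.97 (-1.2 to -0.74), Atp5g1 minus Atp5g3 by -0.30 (-0.61 to 0.00) and -0.60 (-0.89 to -0.32), and Atp5g3 minus Atp5g2 by -0.53 (-0.70 to -0.36) and -0.37 (-0.69 to -0.05). Each of the 3 pairs had an exact permutation p of 0.005, adjusted 0.0075. These tests used 1 probe set per gene and share their genes, so they are not independent of each other.

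The promoter windows of the 3 genes are shown because they make 1 protein under separate control, together with that of Uqcrc1, the called member of complex III with the largest fall. They lie at chr11:96075582-96075881 (Atp5g1), chr15:102670998-102671297 (Atp5g2) and chr2:73911277-73911576 (Atp5g3), all on the minus strand, and at chr9:108936398-108936697 on the plus strand (Uqcrc1), with capitals as above.
Atp5g1: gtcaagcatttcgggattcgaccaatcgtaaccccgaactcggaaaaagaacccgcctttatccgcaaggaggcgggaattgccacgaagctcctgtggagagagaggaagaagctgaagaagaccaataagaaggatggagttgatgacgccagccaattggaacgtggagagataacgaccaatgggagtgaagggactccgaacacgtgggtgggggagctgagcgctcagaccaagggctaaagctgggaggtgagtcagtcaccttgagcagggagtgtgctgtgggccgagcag
Atp5g2: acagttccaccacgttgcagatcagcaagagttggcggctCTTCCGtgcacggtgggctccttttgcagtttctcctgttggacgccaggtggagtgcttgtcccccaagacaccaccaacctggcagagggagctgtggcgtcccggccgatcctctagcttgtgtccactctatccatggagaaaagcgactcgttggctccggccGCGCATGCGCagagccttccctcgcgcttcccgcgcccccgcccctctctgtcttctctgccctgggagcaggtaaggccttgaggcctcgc
Atp5g3: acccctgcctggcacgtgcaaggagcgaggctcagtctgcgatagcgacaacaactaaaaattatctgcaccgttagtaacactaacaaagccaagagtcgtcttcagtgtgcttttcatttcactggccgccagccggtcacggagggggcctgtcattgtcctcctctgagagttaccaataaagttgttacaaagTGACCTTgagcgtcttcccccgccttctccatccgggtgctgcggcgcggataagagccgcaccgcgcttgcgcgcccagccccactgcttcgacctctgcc
Uqcrc1: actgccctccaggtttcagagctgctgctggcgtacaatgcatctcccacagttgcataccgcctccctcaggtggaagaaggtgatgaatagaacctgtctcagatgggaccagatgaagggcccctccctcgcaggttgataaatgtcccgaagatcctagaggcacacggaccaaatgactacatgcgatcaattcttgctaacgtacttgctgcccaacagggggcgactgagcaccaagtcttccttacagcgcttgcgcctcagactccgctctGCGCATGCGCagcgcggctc
The window of Atp5g1, which fell, held none of the 4 motifs. That of Atp5g2, which rose at 3 days, held an ETS match and an NRF1 match, that of Atp5g3 1 match for estrogen-related receptors, and that of Uqcrc1 an NRF1 match. The NRF1 core overlaps its own reverse complement in GCGCATGCGC, so both strands match at 1 place.

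Over all members, 11 of the 78 with a window held the NRF1 motif (14.1%, beside 3.05% of all 27025 genes), 38 the ETS motif (48.7% beside 18.8%), 8 the motif of estrogen-related receptors (10.3% beside 5.38%) and 3 the cyclic AMP response element (3.85% beside 2.03%). The table of all genes also holds non-coding genes and genes with few CG dinucleotides. Members with the NRF1 motif had a median of -0.46 at 7 days and those without it -0.39, and members with the ETS motif had -0.33 and those without it -0.47. Of the 38 with an ETS match 25 fell at 7 days, and of the 40 without it 31 did.

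The 7-day values were mostly lower than the 3-day values, but no single gene passed the test of that difference. The log2 fold change was lower at 7 days in 84 of 94 members, beside 8870 of all 18193 genes. Spearman's correlation between the days over the 94 members was 0.86, given as a description over genes that share arrays and the same pools. By limma no member passed the difference between the days at an adjusted p under 0.05, where 1.24% of all genes did. The smallest adjusted p among members was 0.113, and 29 of 94 had an unadjusted p under 0.05, beside 2937 of all 18193 genes. Between the controls of 7 days and 3 days no member passed by limma either, where 0.0165% of all genes did. At an unadjusted p under 0.05, 9 of the 94 members passed, beside 1443 of all 18193 genes. The 7-day controls were nevertheless higher than the 3-day controls in 79 of 94 members, beside 9182 of all 18193 genes. The median difference was 0.10 over the members. The difference between the days had a median of -0.18 and includes that of the controls, since each day was compared with its own controls.

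Cell type markers moved on the same arrays, and in a bulk tissue fewer cells of a type and less RNA per cell cannot be told apart. Of 12 neuron markers, such as the neurofilament genes Nefl, Nefm and Nefh, 11 were called lower at both days, the medians being -2.18 and -3.27, and the other, Kcna1, read -0.12 and -0.26. The list median on the ouabain arrays was -1.22, -2.74 and -2.69 at 3 days and -2.17, -3.76 and -3.91 at 7 days. Replicate 1 had the smallest fall of the neuron markers at both days. At 3 days it also had the smallest fall of the members (-0.13), and at 7 days it did not (-0.41, beside -0.35 and -0.41). All 10 macrophage markers rose at both days, with medians of 1.90 and 1.92, and of 7 Schwann cell and myelin genes 2 were called lower at 3 days and 5 at 7 days (medians -0.53 and -0.93). Gjb1, a gap junction gene of Schwann cells named after its values were seen, rose by 0.44 at 3 days (SE 0.09, limma adjusted p 0.0031) and fell by 1.24 at 7 days, and Mag, a myelin glycoprotein gene, read 0.48 at 3 days (adjusted p 0.0677). The dividing cell markers, 7 genes, had medians of 2.97 and 0.02, and the control of 7 days with replicate number 1 stood apart in them at 1.61. The same array had the highest value of the 3 controls for the erythroid markers (1.29, beside -0.50 and -0.79) and the bone markers (0.50, beside -0.41 and -0.15). Without that array 54 of the 94 members fell at 7 days with no fold threshold, and without ouabain replicate 1 of 3 days 39 fell at 3 days. None of 3 erythroid and 7 hair and supporting cell markers passed the test, and of 6 bone markers none was called and 1 rose at 7 days without a fold threshold. The part of these cell types in the members' values was not tested.

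**Figure D4:**
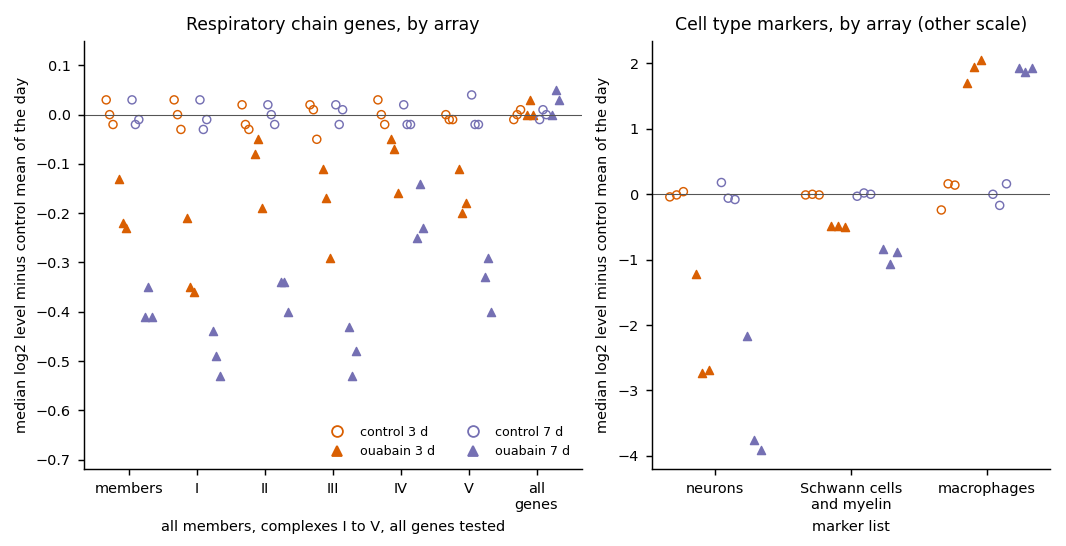
Median log2 level minus the control mean of the same day on each of the 12 arrays, on the left for all members, for complexes I to V and for all genes, and on the right, on another scale, for markers of neurons, Schwann cells and macrophages. Circles are control arrays and triangles ouabain arrays. The members' medians lie at -0.13 to -0.23 at 3 days and -0.35 to -0.41 at 7 days, while all genes stay within -0.01 and 0.05, neuron markers fall to -3.91 and macrophage markers lie at 1.70 to 2.05.

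Other mitochondrial genes were set beside the members, from lists made by function. Without a fold threshold 14.7% of all genes fell and 15% rose at 3 days, and 14.5% fell and 17.2% rose at 7 days. The citric acid cycle, which feeds electrons to the chain, had 9 of 14 genes that fell at 3 days and 13 at 7 days without a fold threshold, and medians of -0.33 and -0.53. Idh3a, a subunit of the isocitrate dehydrogenase of the cycle, fell by 0.60 and by 1.26 (SE 0.08), and Pdhb, of the pyruvate dehydrogenase that supplies the cycle, by 0.71 and by 0.94 (SE 0.08). The single exception at 7 days was Suclg2, named after its value was seen, which rose by 0.44 (SE 0.13, limma adjusted p 0.0221). Of 15 carriers and outer membrane genes, 7 fell and 2 rose at 3 days and 9 fell and 1 rose at 7 days (medians -0.21 and -0.45). Slc25a12, the aspartate and glutamate carrier of excitable tissues, fell by 0.89 and by 1.05 (SE 0.1), and Vdac1, the main channel of the outer membrane, by 0.66 and by 0.81 (SE 0.09).

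Of 37 assembly factors, 11 of them also members, 15 fell and 1 rose at 3 days and 22 fell and none rose at 7 days by limma (medians -0.20 and -0.35). Atpaf1, an assembly factor of the ATP synthase, had the largest fall of the list, by 2.32 and by 2.49 (SE 0.19, limma adjusted p 4.15e-06 and 2.54e-06), and Uqcc1, of complex III, fell by 0.90 and by 0.92 (SE 0.09). Among 11 other genes of oxidative phosphorylation, 3 fell and 3 rose at 3 days and 5 fell and 1 rose at 7 days. Dhodh, of pyrimidine synthesis, fell by 0.41 and by 0.30 and Etfdh, which brings electrons from fat oxidation, rose by 0.39 at 3 days (SE 0.08). Cyc1, named after its values were seen, is a subunit gene of complex III that the choice by name left out. It fell by 0.38 and by 0.91 (SE 0.08, limma adjusted p 0.00482 and 9.98e-06) and was called lower at 7 days. ND5, a complex I subunit and the 1 gene of the mitochondrial genome measured, fell by 0.47 at 3 days (SE 0.12, limma adjusted p 0.0118) and read -0.29 at 7 days (adjusted p 0.0905).

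The 76 genes of the mitochondrial ribosome, which translates the messages of the mitochondrial genome, had medians of 0.03 at 3 days and -0.21 at 7 days. At 3 days 5 fell (6.58%, under the share of all genes) and 9 rose. At 7 days 31 fell (40.8%) and 1 rose. Mrps5 fell by 0.81 and by 0.88 (SE 0.15), and Mrpl33 rose by 1.06 and by 0.62 (SE 0.16). Among 13 regulators of mitochondrial biogenesis the medians were -0.17 and -0.15, with 5 genes lower and 1 higher at 3 days and 6 lower and 2 higher at 7 days. Ppargc1b, a coactivator of mitochondrial genes, fell by 1.14 and by 1.12 (SE 0.12), and Sirt3, a mitochondrial deacetylase, by 0.90 and by 0.83 (SE 0.1). Ppargc1a, a relative of Ppargc1b, was named after its values were seen. It read -1.25 and -2.01 and fell at both days (SE 0.14, limma adjusted p 5.25e-05 and 1.88e-06). The risers, also named after their values were seen, were Gabpa and Nrf1. Gabpa rose by 0.50 and by 0.47 (SE 0.10, limma adjusted p 0.0028 and 0.00386). Nrf1 read 0.32 at 3 days (limma adjusted p 0.0791) and rose by 0.46 at 7 days (SE 0.12, adjusted p 0.0136).

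Among 6 genes of creatine kinase and glycolytic energy supply, 5 fell and 1 rose at both days. Pfkm, the muscle and neuron form of phosphofructokinase, fell by 1.38 and by 1.21 (SE 0.12) and Pkm, pyruvate kinase, by 0.90 and by 1.08 (SE 0.11). The riser was Ldha, named after its values were seen, a lactate dehydrogenase subunit that rose by 0.44 and by 0.56 (SE 0.08). Of Stoml2 and Ucp3, the 2 genes listed for supercomplexes and uncoupling, Stoml2 fell by 0.26 and by 0.22 (SE 0.07), and Ucp3 read -0.12 and fell by 0.69 at 7 days (SE 0.16).

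**Figure D5:**
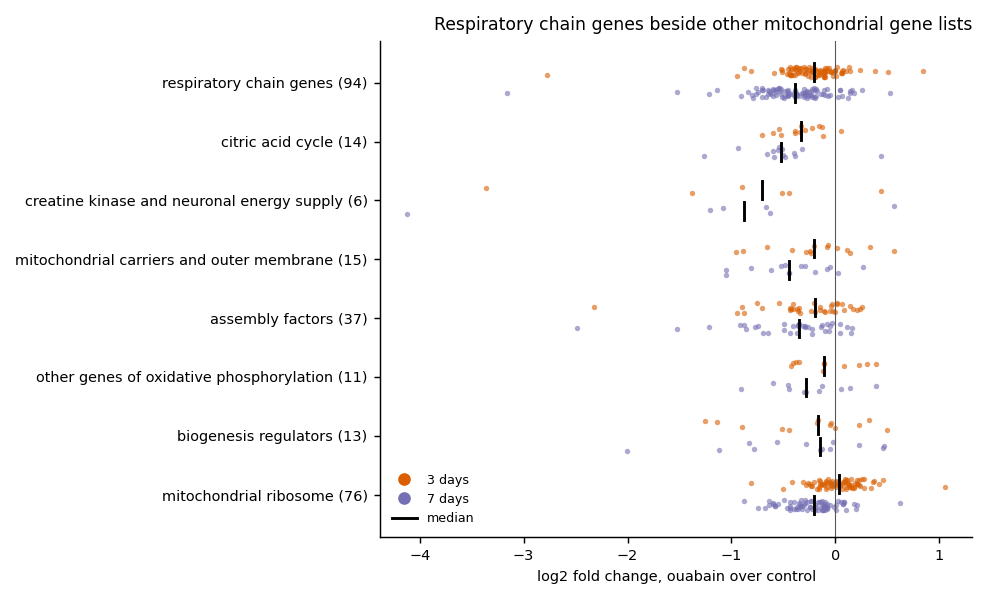
Log2 fold change of ouabain over control (horizontal axis) for the respiratory chain genes and for 7 other lists, 1 point per gene, at 3 days and at 7 days, with bars at the medians. The number of genes is in brackets. Medians lie below 0 in every list at 7 days, and the mitochondrial ribosome has a median of 0.03 at 3 days and -0.21 at 7 days.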

How the data were processed

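Auditory nerve RNA of 4 groups (3 arrays each, 2 pooled preparations per array) was hybridised to Affymetrix whole-genome mouse arrays. The deposited log2 values, 1 per probe set and array, were made by the authors by RMA in Expression Console, which corrects background, quantile-normalizes the arrays and summarises each probe set (versions not given in the sources used here), and were used without further normalization. RNA input was 50 ng per the paper and 100 ng per the labels. The 64 control probe sets among 45101 did not enter the tests. Symbols came from the platform annotation: 34945 probe sets had 1 symbol, 932 several and 9160 none, and all 94 members matched the RefSeq gene table. The members and gene lists were chosen with earlier results of these data known. Named genes were, per complex, the 3 largest called changes at each day, members called higher, isoforms, core subunits, the 3 smallest p of the day difference and 2 genes per other list. Others are marked in the text.

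Group means were estimated by limma 3.58.1 under R 4.3.3, and results were summarised with Python 3.11.15. A call required an adjusted p under 0.05 and a fold above 1.5. The number of arrays, 3 per group, limits the precision. The procedure was tested on simulated data. Alternatives were the methods' unpaired test, a fit per day, a replicate block, no fold threshold, a filter at a log2 value of 6 in 3 arrays, 2 other scalings, a variance trend, array weights, each array left out, the mean over probe sets, probe sets with several symbols and subunits alone.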

Additional observations from a re-analysis of the deposited data

How the results depend on the processing

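No called value reversed its direction under the alternatives run. Without a fold threshold 38 members fell and 3 rose at 3 days and 65 fell and 1 rose at 7 days. Across the 20 other fits these numbers of falling members lay between 30 and 50 at 3 days and between 54 and 71 at 7 days. With the filter on low values, which left 90 members over all complexes, the median of those in complex IV at 3 days was -0.16. With the 75th percentile subtracted from each array the median of all members at 3 days was -0.17, where the median over all probe sets moved to 0.06. With each gene's probe sets averaged the medians were -0.24 and -0.41 in complex I, -0.12 and -0.40 in complex III, -0.27 in complex II and -0.19 in complex IV at 7 days, and -0.34 over all members at 7 days. Without the assembly factors 3 members were called lower at 3 days, and the complex II median at 7 days was -0.51.

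With each array left out in turn, members called lower numbered 4 to 7 at 3 days and 23 to 27 at 7 days. By complex, from I to V, the ranges were 3 to 5, 0 to 1, 0 to 0, 1 to 1 and 0 to 0 at 3 days, and 14 to 18, 1 to 3, 1 to 3, 2 to 3 and 3 to 3 at 7 days. The 5 in complex I came without ouabain replicate 1 of 3 days, the 0 in complex II without ouabain replicate 2 of 3 days, and the 1 in complex III without ouabain replicate 3 of 7 days. Members called higher numbered 1 to 2 at 3 days, the second being Cox6a2 without ouabain replicate 1, and 0 to 1 at 7 days, where Cox7b2 was called without ouabain replicate 2. Between 0 and 1 member passed the difference between the days, Cox7a1 without control replicate 2 of 7 days. Median ranges were -0.25 to -0.18 and -0.41 to -0.37 over all members at 3 and 7 days, -0.14 to -0.06 in complex II and -0.15 to -0.06 in complex IV at 3 days, and -0.31 to -0.19 in complex IV at 7 days. The single calls that moved were those of Sdha, Ndufa4, Uqcrq, Sdhd, Sdhaf3, Cox5a and Cox6a2, in 15 of 1278 values of named genes. Most of these genes lay at a fold near 1.5, but Cox5a was 1.7-fold lower at 7 days. With the mean over probe sets Sdha at 3 days and Cox5a and Uqcrq at 7 days lost their calls.

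Equal replicate numbers correlated by 0.33, 0.09 and 0.18 at 3 days and by 0.28, 0.16 and 0.02 at 7 days, all above 0. Unequal numbers of the same day correlated between -0.33 and 0.15. Equal numbers were not taken as pairs, because the animals of each pool are not named. With the replicate block 5 members were called lower and 1 higher at 3 days, and 24 lower and 0 higher at 7 days. The methods' test called 5, 1, 24 and 0 in the same order, and 5, 1, 23 and 0 after Benjamini-Hochberg adjustment. Disagreement between the probe sets of a gene limits what single genes show.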
